A study of Mus musculus with 8 samples.

Results

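Cytokine-high neutrophils were the wound neutrophils with many transcripts of Ccl3, Il1a and Tnf and few of the granule and interferon-induced genes, and 2433 such cells were found among 35158 cells kept, 6.92% of all and 31.7% of 7670 neutrophils. They were chosen on their measured values. A neutrophil had at least 40 UMIs (unique molecular identifiers, each counting 1 captured transcript) of S100a8 and S100a9 per 10000, at least 1 UMI of Csf3r, and at most 2 UMIs of the monocyte and macrophage genes Csf1r, Ms4a7, C1qa and Fn1 together. Among these, a cytokine-high cell had a summed rate of Ccl3, Il1a and Tnf of at least 25 per 10000, of Ngp, Lcn2 and Mmp8 under 10, and of Ifit1, Ifit3 and Rsad2 under 10. The other neutrophils were 4283 granule-rich cells over the granule limit, 467 interferon-high cells over the interferon limit, and 487 cytokine-low cells under both limits and under the cytokine threshold. Whatever these genes show between the kinds of neutrophil was set by the rule and is given as a description.

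The cells came from full-thickness skin wounds of C57BL/6J mice, sorted for CD45, the surface protein common to white blood cells. Diabetic mice had received streptozotocin (STZ, a toxin of the insulin-producing beta cell) at 120 mg/kg at 4 weeks of age, so they model insulin deficiency, and control mice had not. Wounds were taken 1, 3, 5 and 7 days after injury, with 5 mice pooled for each of 8 libraries, 1 library for each group and day. Mice within a pool cannot be told apart, so no p-value measures the spread between mice. The error of a fit is the spread between libraries left after its terms, and that of the test of shares the spread of the differences over days. Libraries held 19236522 to 33842509 UMIs. Cytokine-high cells numbered 279, 540, 415 and 85 in the diabetic libraries of days 1, 3, 5 and 7, and 364, 549, 54 and 147 in the control libraries. Their median depth per library was 2078 to 2853 UMIs and 692 to 876 genes, and the control library of day 5, with 54 cells, carried the least information.

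Neutrophils are the first white blood cells to enter a wound, and they kill microbes with preformed granule proteins and oxidants. After entering tissue they also transcribe cytokines and chemokines through NF-kappaB and AP-1, transcription factors that act downstream of Toll-like and interleukin-1 receptors. Ccl3 encodes a chemokine that attracts monocytes and neutrophils, Il1a an alarm cytokine of the interleukin-1 family, Tnf the cytokine TNF, Il23a the p19 subunit of interleukin-23, Csf1 a growth factor of macrophages, and Hcar2 the receptor for niacin and beta-hydroxybutyrate.

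The promoters of the marker genes are shown because transcripts of Il1a, Tnf and Csf1 fell over the days of healing, as described further on. Each sequence is the 170 bases before the transcription start in RefSeq (build GRCm38.p6, all on the minus strand), written 5′ to 3′ in the direction of transcription. Of the 6 marker genes, 4 were matched in the promoter table, and Il23a and Hcar2 are named only. Capitals mark a match, on either strand, to an AP-1 motif (TGANTCA) or a kappaB motif (GGG, any 3 bases, then TTCC). The positions were chr2:129309973-129310142 for Il1a, chr3:107760470-107760639 for Csf1, chr17:35202008-35202177 for Tnf and chr11:83649379-83649548 for Ccl3.
Il1a: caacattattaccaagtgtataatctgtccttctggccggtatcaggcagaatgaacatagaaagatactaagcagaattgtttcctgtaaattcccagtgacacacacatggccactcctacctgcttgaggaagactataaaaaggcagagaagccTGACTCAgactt
Csf1: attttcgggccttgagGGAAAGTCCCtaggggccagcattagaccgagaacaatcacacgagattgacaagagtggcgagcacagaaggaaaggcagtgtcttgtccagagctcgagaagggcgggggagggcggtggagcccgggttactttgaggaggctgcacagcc
Tnf: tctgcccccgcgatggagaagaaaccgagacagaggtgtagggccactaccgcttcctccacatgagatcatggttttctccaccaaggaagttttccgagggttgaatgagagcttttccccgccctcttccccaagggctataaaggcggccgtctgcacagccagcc
Ccl3: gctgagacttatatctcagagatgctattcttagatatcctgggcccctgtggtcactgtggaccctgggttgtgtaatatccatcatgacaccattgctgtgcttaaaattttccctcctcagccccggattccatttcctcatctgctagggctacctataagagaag
Il1a held the AP-1 letters TGACTCA at bases -12 to -6 from the start, and Csf1 held GGAAAGTCCC, a minus-strand match to the kappaB letters, at bases -154 to -145. In windows of 170 bases, 4.75% of 32851 mouse promoters held the AP-1 motif and 3.37% the kappaB motif, so a match by letters alone is uncommon but not rare. The shown windows of Tnf and Ccl3 held neither set of letters. The 2 motifs do not overlap in these windows, and a match describes the sequence without showing that a factor binds.

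The label of cytokine-producing activated neutrophils was checked first. Leaving out S100a8, S100a9 and Csf3r, which the rule used, 13 of 13 genes of a neutrophil identity list (Cxcr2, Il1r2, Trem1 and others) were present in the tables, and their summed level in cytokine-high cells was 22900 to 32800 CPM per library (UMIs per 1000000 UMIs summed over the cells of that kind), against 1590 to 3490 CPM in T cells of the same libraries. T cells had at least 3 UMIs of Cd3d, Cd3e, Cd3g, Trac and Trbc2 together. They had no UMI of Csf3r or of the monocyte and macrophage genes of the rule, and numbered 22 to 167 per library. The members of the neutrophil identity list with the largest median log2 ratios to other neutrophils were Cd177 (-1.45), Retnlg (-1.40) and Ly6g (-1.10), while the median over the 13 genes was -0.15. Since the granule limit helped to choose the cells, these ratios describe the choice. The cytokine threshold itself separated few neutrophils. It was passed by 58.3% to 96.5% of granule-rich cells and by 33.3% to 98% of interferon-high cells per library. The 33.3% rests on 6 interferon-high cells of the control library of day 5. Of monocyte and macrophage cells 19.6% to 68.1% passed it, and of T cells 0% to 11.7%. The median summed cytokine rate was 82.4 to 162 per 10000 in cytokine-high cells 34.0 to 139 in granule-rich cells and 14.0 to 188 in interferon-high cells, which were above cytokine-high cells in the diabetic libraries of days 1 (188 against 145) and 7 (183 against 137). Transcripts of these genes at or above the threshold were thus found with most neutrophils measured, and the granule and interferon limits did most of the selecting. The threshold selected most in the control library of day 3, where 20.9% of neutrophils were cytokine-low. Cells were measured after enzymatic digestion of the tissue, and the part of free RNA in these levels was not tested. At the threshold, the lowest cytokine-high cell was at 25.17 per 10000 and the highest cytokine-low cell at 24.99, with 74 cytokine-high cells (3.04%) within 5 above and 95 cytokine-low cells (19.5%) within 5 below.

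Ccl3 supplied most of the rule's sum. A Ccl3 UMI was found in 99.5% of cytokine-high cells, a Tnf UMI in 80.1% and an Il1a UMI in 48.3%, and Ccl3 made up 73.9% of the UMIs of the 3 genes, Tnf 18.2% and Il1a 7.87%. All 3 genes were found in 1014 cells (41.7%), and Ccl3 alone in 330 (13.6%). The share of cells with all 3 was 58.1%, 42.2%, 51.3% and 35.3% in the diabetic libraries of days 1, 3, 5 and 7, and 65.7%, 19.5%, 7.41% and 21.1% in the control libraries. From day 3 on, each diabetic library was above the control library of its day, and on day 1 it was below. With every cell thinned to 1000 UMIs, Ccl3 was found in 98.2% of cytokine-high, 93.8% of granule-rich and 58.8% of cytokine-low cells, and in 48.5% of T cells, which stand here for background from free RNA although activated T cells can transcribe Ccl3 (median depth before thinning 2194 to 4250 UMIs per library). Tnf was found in 64.4%, 61.6%, 23.2% and 30.1% of the same kinds of cell, and Il1a in 35.6%, 41.8%, 8.88% and 8.81%. T cells with a UMI of Csf3r or of the monocyte and macrophage genes were left out, so this background can be an underestimate. The low shares of cytokine-low cells were set by the rule, which holds the sum of these genes under the threshold there.

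Of the 6 markers, Il23a had the largest median ratio to the other neutrophils. Thinned to 1000 UMIs, 8.59% of cytokine-high cells held an Il23a UMI, 8.28% of interferon-high, 6.58% of granule-rich, 0.911% of cytokine-low and 1.15% of T cells. Without thinning, 1.85% to 24.2% of cytokine-high cells per library held one. Its level relative to all other neutrophils of the same library had a median log2 ratio of 0.84 and was higher in 7 of 8 libraries. Hcar2 (median log2 ratio 0.53), Tnf (0.52) and Ccl3 (0.51) were higher in 8 of 8 libraries, Csf1 (0.44) in 6 of 8, and Il1a stood at 0.11. Against cytokine-low cells, in 5 libraries with at least 20 cells of both kinds, the median log2 ratios were 3.64 for Ccl3, 3.16 for Tnf, 2.90 for Il1a, 1.03 for Csf1 and 0.89 for Hcar2. Il23a had only 20 UMIs in cytokine-low cells of all libraries, too few for a ratio. Csf1 was not highest here, since its level was lower than in interferon-high cells in 6 of 6 libraries, with a median log2 ratio of -0.27. The rule fixed Ccl3, Tnf and Il1a in these ratios, and no ratio was tested.

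**Figure D1:**
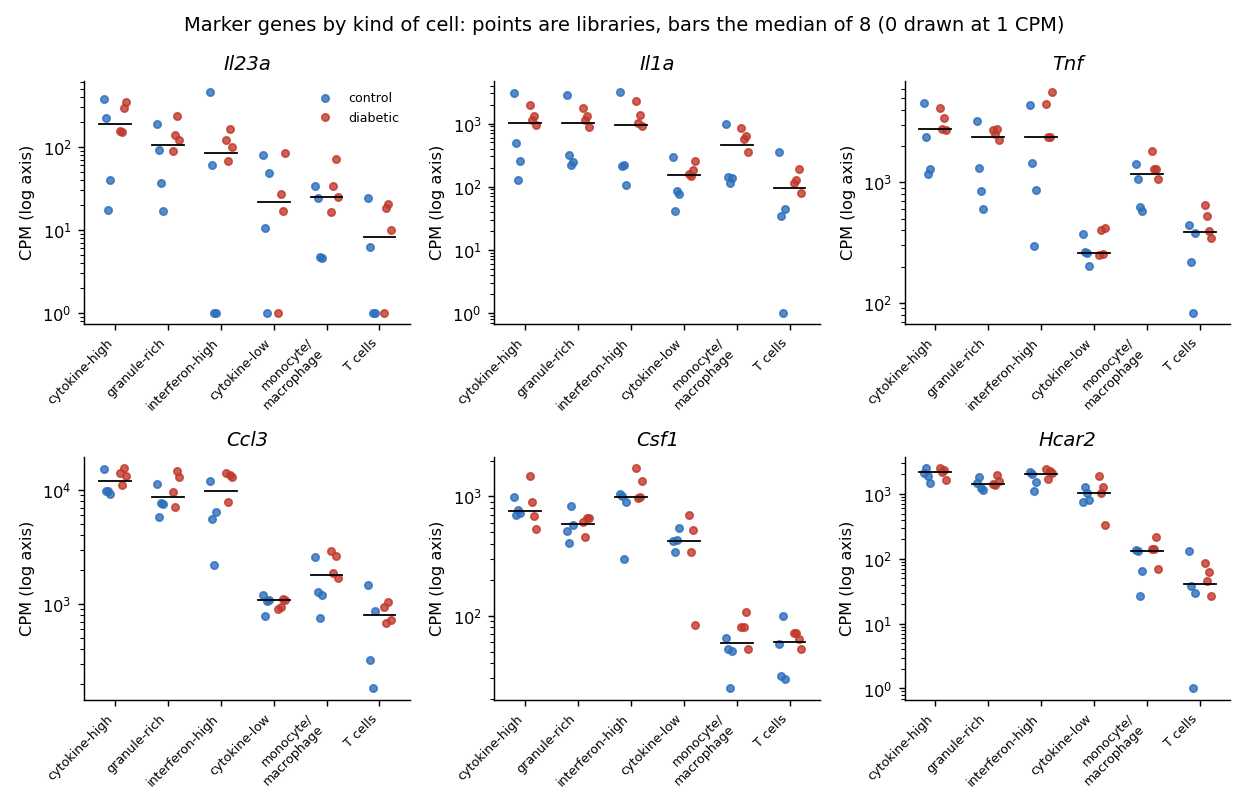
Level of the 6 marker genes (CPM, log axis) by kind of cell, with 1 point per library, red for diabetic and blue for control, and a bar at the median of 8 libraries. Granule-rich and interferon-high neutrophils overlap with cytokine-high cells for every marker, and cytokine-low cells lie lower for Ccl3, Tnf, Il1a and Il23a.

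Beyond the rule, few genes stood apart. Of 8082 genes with enough UMIs, 0 (0%) were at least 2-fold higher in cytokine-high than in other neutrophils in all 8 libraries, and 5 (0.0619%) were at least 2-fold lower, of which Ifit3b, an interferon-induced gene, was the only 1 outside the rule. Against cytokine-low cells, 6 of 5604 genes (0.107%) were at least 2-fold higher in all 5 libraries. Outside the rule these were Serpinb2, an inhibitor of plasminogen activators, Spp1, the matrix protein osteopontin, and Ifit1bl2. In the other direction, 7 of 5604 were at least 2-fold lower (Gprc5a, Marveld2, Pdha1, Imp3, Ncapd3, Bmx and Usp22), low-count genes of which the first 6 had 51 to 78 UMIs. Spp1 stood at 2230, 986, 2240 and 312 CPM in cytokine-high cells of the diabetic libraries of days 1, 3, 5 and 7 and at 3760, 1130, 501 and 1090 CPM in the control libraries. Spp1 transcripts were thus found with these cells in both kinds of wound on every day, at levels that overlapped. The part of RNA from other cells in them was not tested.

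The share of neutrophils that were cytokine-high was next compared between diabetic and control wounds. It was 19.0%, 36.8%, 43.5% and 27.8% in the diabetic libraries of days 1, 3, 5 and 7, and 23.3%, 41.5%, 41.9% and 32.0% in the control libraries. In both groups the share was lowest on day 1, and in control wounds days 3 and 5 were nearly equal. With Ccl3 left out of the sum, the control share was highest on day 1 (14.1%). The difference, diabetic minus control, was -4.24 percentage points on day 1 (95% Newcombe interval -7.13 to -1.33), -4.66 on day 3 (-8.27 to -1.03), 1.69 on day 5 (-7.49 to 10.4) and -4.25 on day 7 (-10.7 to 2.43), where intervals cover counting error only. The mean difference was -2.86 ± 3.04 percentage points (SD, n = 4 days), lower in diabetic wounds on 3 of 4 days, with p = 0.25 in an exact two-sided sign-flip permutation test over days, which cannot reach p = 0.05 with 4 days. This difference was not larger than the spread between days. It changed sign with a cytokine threshold of 50 (1.84), with no UMI of the monocyte and macrophage genes allowed (0.317) and with Ccl3 left out of the sum (3.21, higher in diabetic wounds on 3 of 4 days).

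Among neutrophils under both limits, where only the cytokine threshold selects, the picture differed by day. The cytokine-high share was 90.3%, 88.5%, 94.5% and 91.4% in the diabetic libraries of days 1, 3, 5 and 7, and 95.3%, 66.5%, 81.8% and 75.4% in the control libraries. With a cytokine threshold of 50 it was 83.2%, 69.2%, 85.6% and 86.0% in the diabetic and 88.7%, 46.9%, 57.6% and 56.9% in the control libraries. At both thresholds the control library was higher on day 1 and the diabetic library on each later day. The difference was -5.0 percentage points on day 1 (-9.18 to -1.15), 22.1 on day 3 (17.9 to 26.1), 12.7 on day 5 (4.83 to 23.8) and 16.0 on day 7 (6.73 to 23.7). Its mean was 11.4 ± 11.6 percentage points (SD, n = 4 days), higher in diabetic wounds on 3 of 4 days, with p = 0.25 in the exact sign-flip permutation test. Thinned to 1000 UMIs, the shares were 92.2%, 83.2%, 92.3% and 88.5% in diabetic and 95.2%, 68.1%, 76.9% and 70.3% in control libraries. Ccl3 in T cells of the same libraries can come from free RNA or from the T cells themselves. It was 944, 686, 1040 and 732 CPM in diabetic and 1470, 324, 182 and 870 CPM in control wounds. It thus moved the same way on 3 of 4 days, and the part of free RNA in the difference was not tested. This denominator was chosen after seeing the data.

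**Figure D2:**
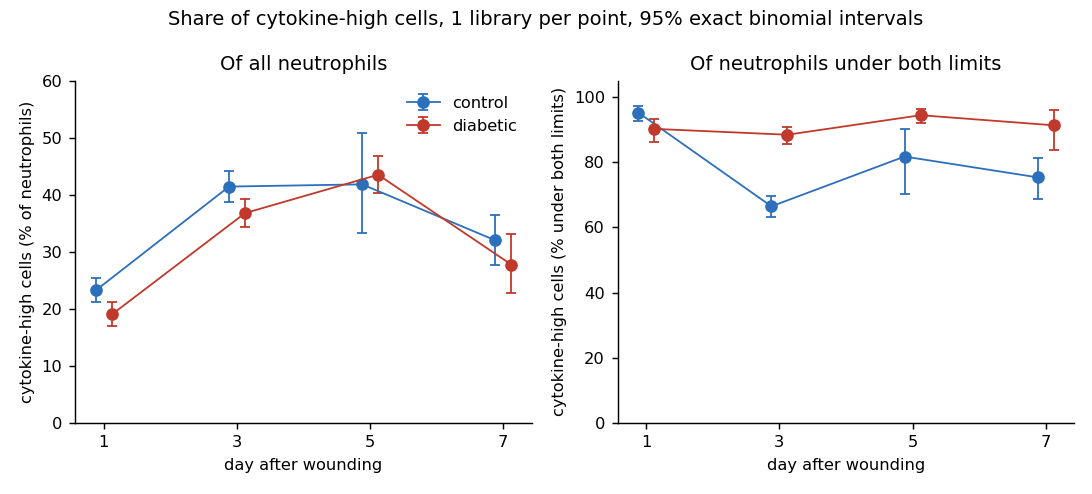
Cytokine-high cells as a percent of all neutrophils (left) and of neutrophils under the granule and interferon limits (right) by day after wounding, 1 library per point with 95% exact binomial intervals. Diabetic (red) and control (blue) libraries lie within 5 percentage points of each other on the left, and on the right the diabetic libraries lie 12.7 to 22.1 points higher on days 3, 5 and 7.

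Levels within the cytokine-high cells were then compared. Il23a (chr10:128296139-128298752, minus strand, GRCm38) stood at 156, 150, 296 and 344 CPM in the diabetic libraries of days 1, 3, 5 and 7 and at 373, 221, 17.3 and 39.7 CPM in the control libraries, and at 0 to 23.9 CPM in T cells. It was lower in diabetic wounds on days 1 and 3 and higher on days 5 and 7, when the control libraries held only 2 and 13 UMIs of it against 358 and 65 in the diabetic ones. The log2 ratio of diabetic to control was -1.26 on day 1 (95% interval from counting -1.60 to -0.93), -0.56 on day 3, 4.10 on day 5 (2.24 to 7.15) and 3.11 on day 7 (2.24 to 4.10). Its change per day differed between the groups by 0.89 ± 0.13 (SE) on the log2 scale, diabetic minus control (adjusted p = 0.00506, edgeR), and it was the only 1 of 5762 genes past this test (0.0174% higher and 0% lower in diabetic wounds). The test was added after the values had been seen, and the adjusted p was 0.131 with cells thinned to 1000 UMIs, 0.0581 without the diabetic library of day 1 and 0.198 without that of day 7. The differences in these fits were 0.85, 1.0 and 0.908, so the call was lost at about the same size. In granule-rich neutrophils Il23a was at 88.2, 138, 234 and 120 CPM in diabetic and 187, 92.4, 36.5 and 16.9 CPM in control libraries. The same order of the groups was thus seen there on days 1, 5 and 7.

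Il1a stood at 1970, 1120, 1310 and 930 CPM in cytokine-high cells of the diabetic libraries and at 3060, 488, 129 and 253 CPM in the control libraries of days 1, 3, 5 and 7. Control wounds were higher on day 1, and diabetic wounds on each later day. In T cells of the same libraries Il1a was at 112, 126, 193 and 79.5 CPM in diabetic and 359, 34.6, 0 and 44.2 CPM in control libraries, the same order on each day, and the part of free RNA was not tested. The T cell values of the control libraries of days 5 and 7 rest on 25 and 22 cells. Tnf followed the same order, at 4150, 2760, 3400 and 2740 CPM in diabetic and 4580, 2360, 1180 and 1300 CPM in control libraries. In T cells Tnf was at 645, 524, 396 and 348 CPM in diabetic and 445, 220, 82.7 and 383 CPM in control libraries, the opposite order on days 1 and 7. Averaged over the 4 days, neither differed past the threshold between diabetic and control wounds (Il1a log2 fold 1.28, adjusted p = 0.157; Tnf 0.69, adjusted p = 0.435, edgeR with day as a block). Without day 1 the log2 folds were 2.01 for Il1a and 1.01 for Tnf, without day 5 they were 0.72 and 0.33, and with no UMI of the monocyte and macrophage genes allowed, which left 6 libraries, 0.09 and 0.30. With thinning they were 0.77 and 0.35, and without the day term 0.22 and 0.38. Since both genes helped to choose the cells, each was also tested in cells chosen without it in the sum, an alternative added after seeing the data. There Il1a had a log2 fold of 1.33 over 4 days (adjusted p = 0.171, edgeR) in 2403 cells. It was 2.10 without day 1 (adjusted p = 3.89e-08), the day on which the order of the groups was the opposite, and 0.73 without day 5 (adjusted p = 0.685). Tnf had 0.72 over 4 days (adjusted p = 0.454, edgeR) in 2308 cells, 1.06 without day 1 (adjusted p = 0.00601) and 0.35 without day 5 (adjusted p = 0.822). The values without day 1 restate the order seen by day and are no separate evidence.

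The remaining markers differed less. Ccl3 was at 14000, 11000, 15700 and 13200 CPM in diabetic and 15300, 9910, 9810 and 9330 CPM in control libraries. Csf1 was at 1490, 903, 681 and 534 CPM in diabetic and 989, 699, 777 and 724 CPM in control libraries, higher in diabetic wounds on days 1 and 3 and lower on days 5 and 7. Hcar2 was at 2490, 2210, 2330 and 1640 CPM in diabetic and 2090, 2540, 1900 and 1500 CPM in control libraries. The levels of Csf1 and Hcar2 overlapped between the groups. For Ccl3 the diabetic library was above its control on days 3, 5 and 7 and below it on day 1. In cells chosen without Ccl3 in the sum its log2 fold was 0.005 (779 cells of 6 libraries). Without day 1 as well it was 0.19 (395 cells of 4 libraries).

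**Figure D3:**
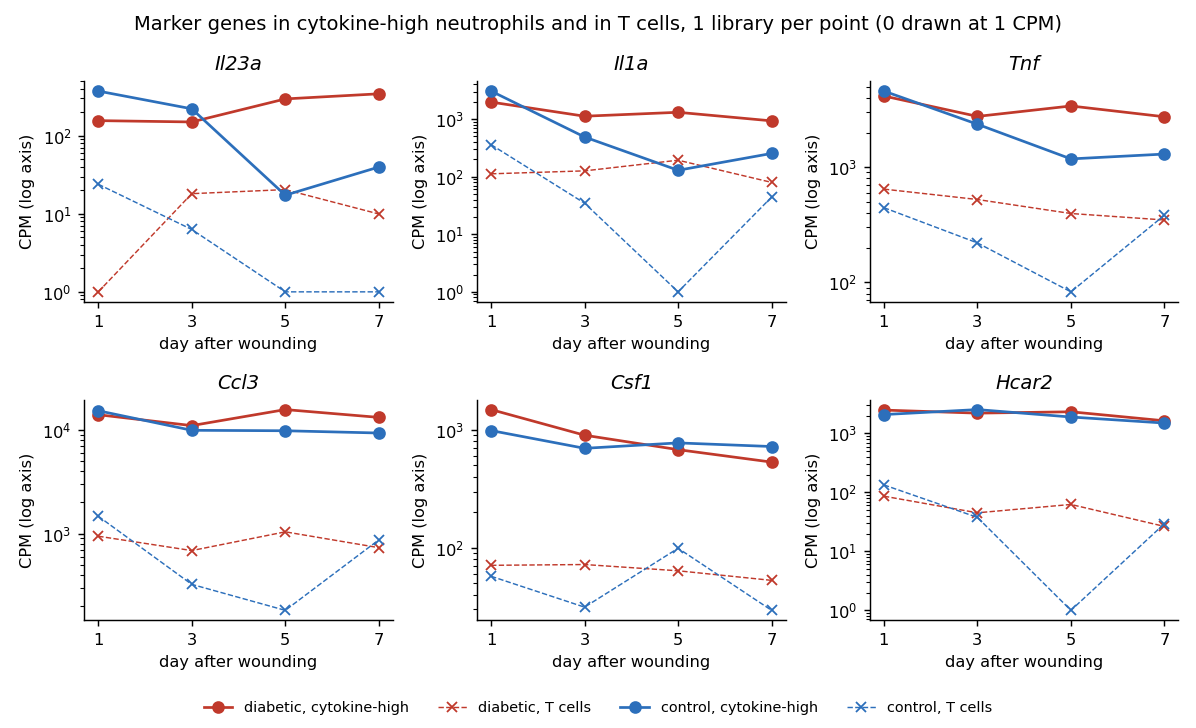
Level of the 6 marker genes (CPM, log axis) by day after wounding in cytokine-high neutrophils (solid lines, circles) and in T cells of the same libraries (dashed lines, crosses), 1 library per point. Il23a and Il1a of control wounds (blue) lie above the diabetic library (red) on day 1 and well below it on days 5 and 7, where Il23a is at 17.3 and 39.7 CPM against 296 and 344.

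Over all genes, a single gene passed the test of diabetic against control wounds. Fosb, a subunit of AP-1 that cells transcribe within minutes of a stimulus, was lower in diabetic wounds (log2 fold -1.08 ± 0.18 SE, adjusted p = 0.00727, edgeR), 1 of 5762 genes lower (0.0174%) and 0 higher (0%), with 411 genes at an unadjusted p under 0.05 and 1 past the test with DESeq2. Fosb (chr7:19302696-19310051, minus strand, GRCm38) stood at 268, 352, 383 and 412 CPM in the diabetic and at 511, 858, 984 and 748 CPM in the control libraries of days 1, 3, 5 and 7. The groups did not overlap, and the log2 ratio within a day was -0.93, -1.29, -1.36 and -0.86. Fosb in granule-rich neutrophils was at 178, 286, 299 and 307 CPM in diabetic and 299, 806, 810 and 763 CPM in control libraries. In monocyte and macrophage cells it was at 316, 1100, 883 and 1150 CPM against 521, 1440, 1900 and 2290 CPM, also lower in diabetic wounds on each day. In T cells it was at 706, 1410, 1220 and 447 CPM against 1300, 1310, 1690 and 1530 CPM, lower on 3 of 4 days. With 1 library per group and day, wound group and the preparation of a library cannot be told apart. The call was lost without day 3 (adjusted p = 0.0805), without day 5 (0.0876), without the day term (0.401) and with no UMI of the monocyte and macrophage genes allowed, which left 6 libraries (0.682), while the log2 fold in these fits stayed between -1.08 and -0.99.

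Gene groups behaved as follows in the same comparison, in which the median log2 fold of all genes was 0.01. Of 25 immediate early genes tested, 1 (Fosb) was lower and none of the others passed, with a median of -0.17 and 7 above 0. Fos, another AP-1 subunit, stood at 312, 308, 421 and 370 CPM in diabetic and 355, 796, 1010 and 669 CPM in control libraries, lower in diabetic wounds on each day, at a log2 fold of -0.88 (adjusted p = 0.0914, edgeR). Of 21 genes of the NF-kappaB pathway and its feedback, 0 passed, and 19 had a fold above 0, with a median of 0.31. Of 18 cytokines 0 passed, 15 were above 0 and the median was 0.27, and of 20 interferon-induced genes 0 passed, 17 were above 0 and the median was 0.38. The cytokine list holds Il1a and Tnf, and the interferon list Rsad2, which the rule used. These counts and medians thus rest partly on genes that chose the cells and are given as a description. Of 7 stefins, inhibitors of cysteine proteases that neutrophils transcribe at high levels, 0 passed and 7 were above 0, with a median of 1.13. Stfa2 of this family was at 337, 147, 89.2 and 37.0 CPM in diabetic and 18.7, 90.1, 8.63 and 42.8 CPM in control libraries, and its log2 fold of 1.82 did not pass (adjusted p = 0.0914). Stefin genes are near-identical copies, between which reads can be split.

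The number of calls depended on day 1. With days 3, 5 and 7 alone, 36 of 5640 genes (0.638%) were higher and 10 (0.177%) lower in cytokine-high cells of diabetic wounds. Of the NF-kappaB list 4 of 21 passed, all higher. Among them Tnip1, which restrains NF-kappaB signalling, was at 371, 423, 397 and 375 CPM in the diabetic and 319, 97.7, 259 and 199 CPM in the control libraries of days 1, 3, 5 and 7 (log2 fold without day 1 of 1.38, adjusted p = 0.000632, edgeR). Sod2, the mitochondrial superoxide dismutase, was at 1370, 1380, 1200 and 1620 CPM in diabetic and 1360, 711, 967 and 629 CPM in control libraries (0.97, adjusted p = 0.00626). Both genes were near their control on day 1 and above it on each later day.

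Traf1, an adaptor of TNF receptors, and Zc3h12a, an RNase that degrades cytokine transcripts, were the other members past the test, at log2 folds of 1.00 and 0.83. Of 17 cytokines 3 passed, all higher, of which Il1a and Tnf are genes of the rule and Il1rn, the interleukin-1 receptor antagonist, at 0.77, is not. Of 14 chemokines only Cxcl3 passed, at 0.98. It stood at 3290, 1690, 2680 and 1690 CPM in diabetic and 5200, 1110, 777 and 1280 CPM in control libraries, again lower in diabetic wounds on day 1 and higher after it. Saa3, an acute-phase serum amyloid, was at 211, 396, 297 and 301 CPM in diabetic and 242, 47.2, 0 and 165 CPM in control libraries (log2 fold without day 1 of 2.44, adjusted p = 2.48e-06, edgeR). Cd274, which encodes PD-L1, and Fpr1, the receptor for bacterial formyl peptides, passed at 0.90 and 0.83. On the lower side were Fos and Fosb, both at -1.09, and Mmp9, a gelatinase, at -0.79. Of 17 genes of itaconate, prostaglandin and antimicrobial functions 3 passed, all higher, namely Saa3 and the chitinase-like genes Chil1 (0.98) and Chil3. Chil3 was at 236, 271, 33.1 and 153 CPM in diabetic and 143, 11, 34.5 and 58.0 CPM in control libraries (log2 fold without day 1 of 2.75), and in monocyte and macrophage cells at 2260, 1290, 170 and 214 CPM against 1350, 193, 22.1 and 41.2 CPM. Of 11 granule genes 2 passed, Chil3 higher and Mmp9 lower. Igkc and Igha, immunoglobulin genes of B cells, and Col1a2, a collagen gene of fibroblasts, were also on the lower side, and their levels in cytokine-high cells were at most 13.6 CPM in the median library. The choice to describe these 3 days was made after the values were seen.

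Whether the group difference was particular to cytokine-high cells was tested directly. The interaction of group and kind of neutrophil, cytokine-high against other, was past the test for 0 of 7165 genes in edgeR (0%) and 0 in DESeq2, with 260 genes at an unadjusted p under 0.05.

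The time course gave more calls than diabetes with all libraries, 206 against 1. Without the control library of day 7 it gave 33, while the group comparison gave 46 without day 1. The fits differ in form, so these counts do not rank time against diabetes. Over both groups, 83 of 5219 genes (1.59%) rose and 123 (2.36%) fell per day in cytokine-high cells (edgeR, with group as a covariate), with 942 at an unadjusted p under 0.05. All 83 and 123 had the same sign of slope in each group taken alone. They were chosen by their slope in these same libraries, so this is no separate evidence. Of the label's markers, Il1a fell by 0.49 per day on the log2 scale (adjusted p = 0.0053), Tnf by 0.28 (0.0083), Csf1 by 0.22 (0.0053) and Hcar2 by 0.16 (0.0327). Ccl3 (-0.12 per day, adjusted p = 0.153) and Il23a (-0.21, adjusted p = 0.325) did not pass. In cells chosen without the tested gene in the sum, the slopes were -0.49 for Il1a (adjusted p = 0.0074, edgeR), -0.28 for Tnf (adjusted p = 0.00727) and, in 943 cells of 7 libraries, -0.09 for Ccl3 (adjusted p = 0.511). Without the control library of day 1 the slope shrank to -0.23 for Il1a and -0.16 for Tnf. The call of Il1a was lost with DESeq2 (adjusted p = 0.0959) and without the control library of day 7 (0.0631), and that of Csf1 with cells thinned to 1000 UMIs (0.064) and without the diabetic library of day 1 (0.13). The slopes in these fits were -0.484 and -0.466 for Il1a, and -0.174 and -0.17 for Csf1. The call of Tnf was lost with thinning (-0.14 per day, and -0.08 for Hcar2), with no UMI of the monocyte and macrophage genes allowed and without either control library of days 1 and 7, and that of Hcar2 in 8 alternatives.

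Of 16 cytokines tested that the rule did not use, 6 fell (Csf1, Il1b, Il12a, Il1f9, Il1rn and Tnfsf14) and 0 rose, with a median of -0.17 per day, beside 2.36% of all genes that fell. With Il1a and Tnf of the rule it was 8 of 18, with a median of -0.19. Il1b, the interleukin-1 most abundant in neutrophils, was at 13500, 11900, 11200 and 8580 CPM in diabetic and 13800, 10700, 12100 and 9850 CPM in control libraries of days 1, 3, 5 and 7 (-0.15 per day, adjusted p = 0.0327, edgeR). Il1rn was at 7240, 5630, 6920 and 4870 CPM in diabetic and 6830, 3780, 3250 and 3770 CPM in control libraries (-0.18 per day, adjusted p = 0.0355). In both groups and for both genes the level on day 7 was below that on day 1. Il1f9, an interleukin-36, fell by 0.21 per day and Tnfsf14, the TNF family ligand LIGHT, also by 0.21. Il12a, the p35 subunit of interleukin-12, fell by 0.56 per day, from 59.3 to 10.6 CPM in diabetic and from 39.6 to 6.11 CPM in control wounds between days 1 and 7. Osm, which encodes oncostatin M, did not pass, at 431, 351, 664 and 608 CPM in diabetic and 479, 469, 371 and 626 CPM in control libraries.

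Of 14 chemokines of the list, 3 fell and 0 rose, beside 2.36% of all genes that fell. Outside the list the chemokine Ccl8 rose and Ppbp fell. Ccl4, a close relative of Ccl3, was at 7920, 4550, 5370 and 4740 CPM in diabetic and 9390, 4960, 3470 and 2770 CPM in control libraries (-0.27 per day, adjusted p = 0.00469, edgeR). Cxcl2, a ligand of the neutrophil receptor CXCR2, was at 58000, 38000, 46400 and 43300 CPM in diabetic and 71500, 41400, 34900 and 33600 CPM in control libraries (-0.19 per day, adjusted p = 0.0336). Day 1 was the highest day for both genes in each group. Cxcl3 fell by 0.32 per day. Of 28 receptors of activation and migration, 6 fell, namely Hcar2, Fpr1, Clec4e and Clec4d (lectin receptors for fungal and mycobacterial lipids), Plaur (the urokinase receptor) and Cd274.

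Signalling and effector genes had fewer calls, to be read against the 2.36% of all genes that fell, near which the immediate early and the glycolysis counts lie. Of 21 NF-kappaB genes, 4 fell (Nfkbib, Nfkbiz, Tnfaip3 and Traf1), and of 25 immediate early genes 1 (Nr4a3). Of 17 genes of itaconate, prostaglandin and antimicrobial functions, 3 fell, including Acod1, the enzyme that makes itaconate, at 10400, 7030, 6410 and 6320 CPM in diabetic and 10600, 5170, 3930 and 4520 CPM in control libraries (-0.23 per day, adjusted p = 0.00799, edgeR). Wfdc17, a secreted protein of the whey acidic protein family, was at 2060, 1950, 898 and 777 CPM in diabetic and 2290, 2510, 1200 and 1120 CPM in control libraries (-0.31 per day, adjusted p = 0.000879). Wfdc17 was high on days 1 and 3 and low on days 5 and 7 in both groups, without overlap. Of 24 survival and cell death genes 4 fell (Gadd45a, Pim1, Casp4 and Nlrp3), and of 26 glycolysis and hypoxia genes 1 (Slc2a3, a glucose transporter). Of 22 stress genes Ddit4 and Slc7a11 fell and Hspa1a, a heat shock protein, rose.

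Genes of neutrophil identity also held calls, and the counts here are to be read against the 2.36% of all genes that fell. Of the 13 outside the rule, 4 fell (Retnlg, Mmp9, S100a11 and Clec4d) and 0 rose, with a median of -0.12 per day. S100a8 and S100a9 are left out here, since the rule sets a lower limit on their sum in each cell. Retnlg, a resistin-like protein high in young neutrophils, was at 1460, 1500, 625 and 830 CPM in diabetic and 2570, 1200, 552 and 238 CPM in control libraries (-0.44 per day, adjusted p = 0.000959, edgeR). Of 19 interferon-induced genes, 5 fell (Isg15, Isg20, Slfn4, Gbp2 and Rsad2, the last under a limit of the rule), and of 6 stefins 2 (Stfa2l1 and BC100530).

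**Figure D4:**
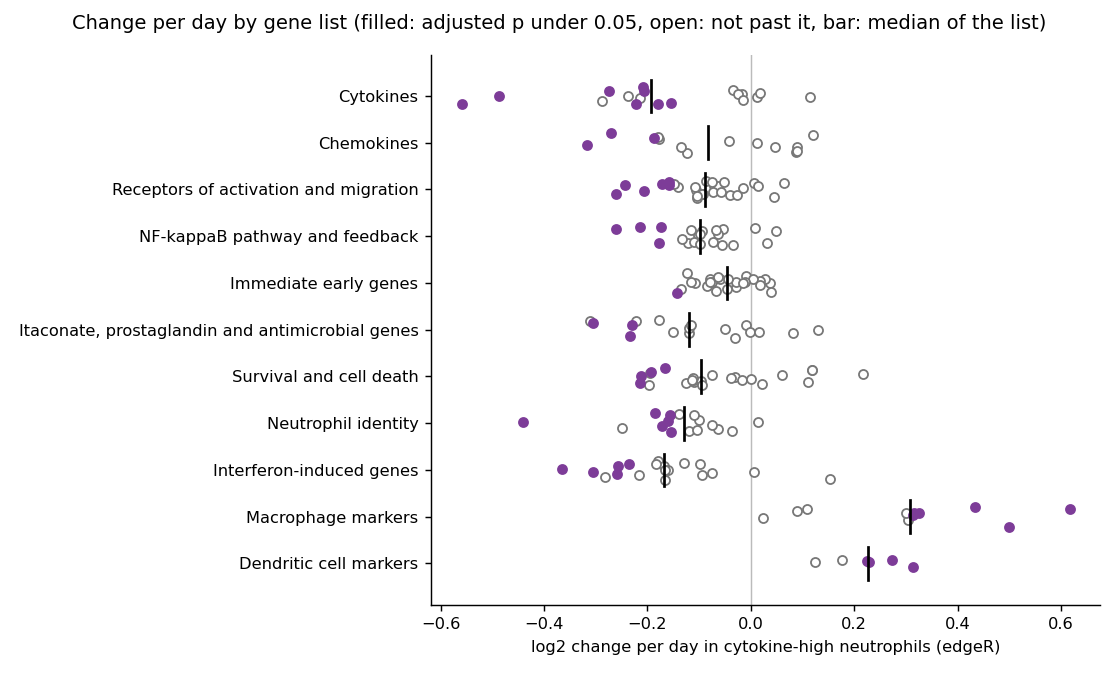
Log2 change per day of each tested gene of 11 lists in cytokine-high neutrophils, filled where the adjusted p was under 0.05 (edgeR) and open where not, with a bar at the median of each list. Cytokines (median -0.19, genes of the rule included) and the other neutrophil lists lie left of 0, and macrophage (0.31) and dendritic cell markers (0.23) lie right of it.

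The genes that rose were at or below their level in monocyte and macrophage cells, without exception among the 83. They were 1.59% of all genes tested, against which the list counts that follow are to be read. Of 12 macrophage markers 6 rose (among them C1qb, C1qc, Apoe, Gpnmb and Ms4a7, the last under a limit of the rule), of 6 dendritic cell markers 4 (H2-Ab1, H2-Aa, H2-Eb1 and Cd74), of 3 T cell markers 2 (Trac and Trbc2) and of 2 fibroblast markers 2 (Col1a1 and Col1a2). The steepest rises past the test were those of Col1a2 (1.19 per day), Igf1 (1.14), Retnla (0.86) and Sh2d2a (0.74), followed by Ccl8 (0.67), Lpl and Apoe (each 0.62), Col1a1 and Il2ra (each 0.56) and Rora (0.54). Apoe, a lipid carrier of macrophages, was at 87.4, 867, 390 and 1650 CPM in cytokine-high cells of diabetic and 62.8, 505, 1580 and 2720 CPM of control libraries. In T cells of the same libraries it was at 112, 794, 300 and 1570 CPM and at 38.3, 481, 1340 and 2550 CPM. In both kinds of cell Apoe was lowest on day 1 and highest on day 7 in each group.

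In cytokine-high cells the macrophage list summed to 438, 1760, 845 and 3000 CPM in diabetic and 380, 1220, 3210 and 5100 in control libraries. In T cells it summed to 239, 1390, 506 and 2670 CPM and to 196, 783, 2710 and 4300 CPM. The list holds genes under the rule's monocyte and macrophage limit, Ms4a7 among them. Cytokine-high cells could hold UMIs of these genes up to that limit, and T cells were chosen without any. The higher sums in cytokine-high cells were thus partly set by the definitions. The dendritic cell list summed to 1950, 3700, 4040 and 7560 CPM and to 950, 3240, 2670 and 5620 CPM in cytokine-high cells, and in T cells to 888, 3160, 3350 and 7490 CPM and to 2170, 2540, 1900 and 5280 CPM. The T cell list summed to 18.7 to 174 CPM in cytokine-high cells per library, against 3960 to 6050 CPM in T cells. The fibroblast list stood at 10.1 to 69.1 CPM in cytokine-high cells up to day 5, and at 291 CPM in the diabetic and 657 CPM in the control library of day 7, beside 285 and 560 CPM in T cells of those libraries. Cd79a of B cells, Siglecf, Epx and Prg2 of eosinophils, Pdgfra of fibroblasts, Krt14 and Krt1 of keratinocytes and Alas2 of red cells were at 0 in cytokine-high cells. Other members of these lists were present, among them Igkc of B cells at 0 to 208 CPM per library (15.2 to 251 CPM in T cells) and Ccr3 of eosinophils at 0 to 33.9 CPM (0 to 49.7 CPM in T cells). Of the 83 genes that rose, all 83 were at or below their level in monocyte and macrophage cells, 62 were at or below that in T cells, and 0 were at least 5 times above both. Of the 123 that fell, 27 were at least 5 times above both, 18 were at or below the monocyte and macrophage level and 15 at or below that of T cells. The part of RNA from other cells in either direction was not tested.

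Falls are read against the genes that cytokine-high cells held at 5 or more times the level of both T cells and monocyte and macrophage cells. The 193 tested genes of this kind had a median of -0.10 per day, with 27 that fell and 0 that rose, and the 27 included Acod1, Clec4d, Csf1, Fpr1, Hcar2, Il1f9, Retnlg and Stfa2l1, beside S100a8 and S100a9 of the rule. The number that fell was 5 without the diabetic library of day 1, 6 without the control library of day 7, 8 without the control library of day 1 and 17 without the control library of day 5 or the diabetic library of day 7, and 7 each with thinning and with no UMI of the monocyte and macrophage genes allowed, while the median stayed between -0.13 and -0.07. Without the diabetic library of day 3, 38 fell and 1 rose. A slope of about this size was therefore common among genes high in these cells. Retnlg, 1 of the 27, fell by 0.44 per day. Il1a fell by 0.49 (0.23 without the control library of day 1) and Il12a by 0.56, but neither belongs to the 193 genes. Il1a had a median over libraries of 1030 CPM in cytokine-high cells and of 454 CPM in monocyte and macrophage cells. The other steepest falls past the test were those of Gm10800 (-0.69 per day), Vcan (-0.57), Ppbp (-0.53), BC100530 (-0.51), Sh2d5 (-0.44), Mpp7 (-0.43) and Serpinb2 (-0.42). Of 73 genes named from the lists and extremes that passed the change per day, 7 passed in each alternative (Apoe, BC100530, Ccl8, Col1a2, H2-Aa, Retnlg and Wfdc17), and 10 when each library was left out in turn. In none did the direction turn.

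**Figure D5:**
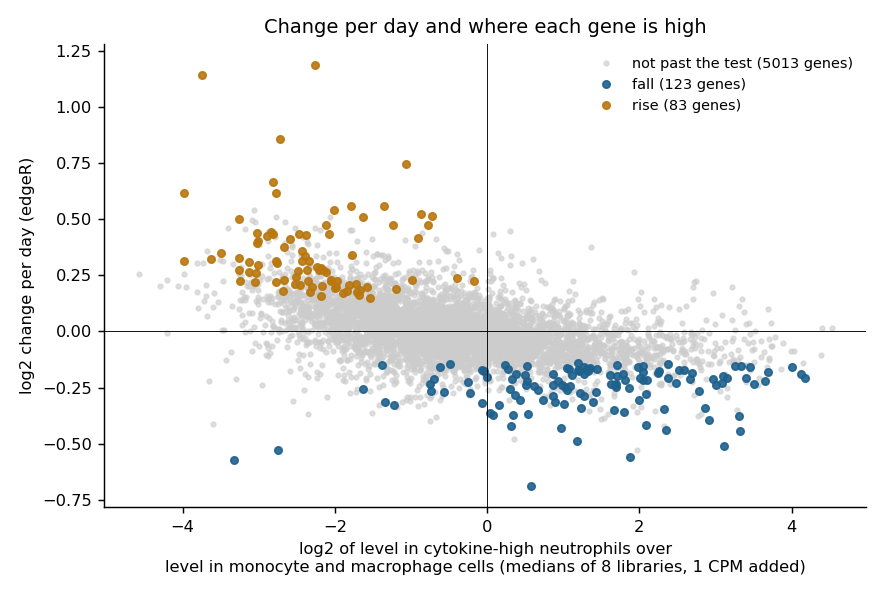
Log2 change per day (vertical axis) against the log2 ratio of the median level in cytokine-high neutrophils to that in monocyte and macrophage cells (horizontal axis), 1 point per tested gene. All 83 genes that rose (orange) lie left of 0, and most of the 123 that fell (blue) lie right of it.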

How the data were processed

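CD45-sorted wound cells were measured in 8 single-cell libraries. The deposited values are whole-number counts of UMIs, without scaling, which the authors made with fastp 0.20.1 (per the labels), UMI-tools and STAR on GRCm38 by their methods, although the submitters' processing notes name mm9. The labels speak of 10X Genomics and the methods of BD Rhapsody. No coordinate was taken from the counts. Barcodes were running numbers, so barcodes shared between libraries could not be counted. Of 38959 barcodes, 35158 had more than 200 genes and less than 20% of UMIs from mitochondria, and these were the cells used. No doublet caller was run, and the limit on monocyte and macrophage genes and an alternative without the 5% of cells with most UMIs stand in for it.

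UMIs were summed over cytokine-high cells per library, scaled by TMM, filtered with filterByExpr and tested with edgeR 4.0.16 (R 4.3.3), quasi-likelihood with Benjamini-Hochberg adjustment and a threshold of 0.05, for diabetic against control with day as a block, for change per day with group as a covariate, and for the interaction with the kind of neutrophil. The study's methods tested cells and gave no model over libraries. DESeq2 1.42.0 was an alternative, beside thresholds of 15 and 50, RLE scaling, no filter, thinning to 1000 UMIs and leaving out each library. Leaving out a library of a blocked comparison leaves out its day. Shares had exact binomial and Newcombe 95% intervals, which cover counting error only, and an exact sign-flip test over the 4 days. Tables used Python 3.11.15, NumPy 2.4.6, SciPy 1.17.1, pandas 2.3.3 and matplotlib 3.10.9.

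On simulated counts with 200 genes changed, edgeR recovered 188 for the group (5427 genes), 155 for change per day (4955), 197 for the interaction (6600) and 16 for the difference in change per day (5426), with log2 changes of 2, for the slopes from day 1 to day 7. The last test thus had little power. False calls numbered 9, 3, 11 and 1 in the same order. The changed genes were drawn only from those above a set mean level, and smaller changes, such as that of Fosb, were not simulated. The members, the marker genes and the gene lists were chosen with earlier results of these data known. Genes were named where they were markers of the label or rule, the largest changes of a list, or among the 10 largest rises or falls past a test, and other names were chosen after their values were seen.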

Additional observations from a re-analysis of the deposited data

Results flagged for a closer look

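Il23a in cytokine-high neutrophils differed between diabetic and control wounds in its change per day, by 0.889 on the log2 scale (SE 0.131, adjusted p = 0.00506, edgeR), with levels that were higher in control wounds on days 1 and 3 and higher in diabetic wounds on days 5 and 7. The control levels of days 5 and 7 rest on 2 and 13 UMIs. The test was added after the values had been seen. Its call was lost with cells thinned to 1000 UMIs and without the diabetic library of day 1 or of day 7, at differences of 0.85, 1.0 and 0.908.

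The cytokine-high share among neutrophils under both limits went one way on day 1 and the other way on later days. Diabetic minus control was -5.0 percentage points on day 1, 22.1 on day 3, 12.7 on day 5 and 16.0 on day 7, and this difference between days was not tested.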

How the results depend on the processing

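The difference in share of neutrophils had a mean above 0 in 3 alternatives, 1.84 at a threshold of 50, 0.317 with no UMI of the monocyte and macrophage genes and 3.21 with Ccl3 left out of the sum (an alternative added after seeing the data, with day 3 at 3.47 and day 7 at 2.94). In the other alternatives run it was -5.28 to -1.35, and -4.38 to -2.27 when 1 day was left out, while day 3 was -8.49 at a threshold of 15, -0.463 at 50 and -10.6 with thinning, and day 7 was 4.52 with no such UMI. Day 5 was 10.0 (1.09 to 17.8) at a threshold of 50 and 9.46 (3.11 to 13.8) with Ccl3 left out. It was -0.931 at a threshold of 15 and -1.5 with thinning. Under both limits the mean stayed above 0 (7.91 to 16.9 when 1 day was left out), with day 5 at 28.1 and day 7 at 29.1 at a threshold of 50 and day 3 at 15.1 with thinning. Calls for diabetic against control were 0 with no UMI of the monocyte and macrophage genes, 0 without the day term, 13 with no filter on low counts, 2 with thinning, 2 without the 5% of cells with most UMIs and 0 to 46 when 1 library was left out. Change per day gave 65 calls with no UMI of the monocyte and macrophage genes, 129 at a threshold of 50, 44 with thinning and 33 to 276 when 1 library was left out (33 without the control library of day 7, 48 without the diabetic library of day 1, 71 without the control library of day 1 and 81 without the diabetic library of day 7). The interaction gave 3 with no filter, 1 without the 5% of cells with most UMIs and 0 to 1 when 1 library was left out. The difference in change per day gave 4 with no UMI of the monocyte and macrophage genes, 2 at a threshold of 50, 2 with DESeq2, 7 with no filter, 0 with thinning and 0 to 4 when 1 library was left out. The cause of these shifts was not tested, apart from the smaller number of days or libraries that leaving 1 out brings. The diabetic and control library of a day were paired by day, as the block in edgeR and in the sign-flip test. The 54 cells of the control library of day 5 limit all values of that day.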
